A study of Homo sapiens with 4 samples.

Results

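Clustered distal enhancers of control K562 cells are described here as groups of H3K27ac peaks that lie close to one another and away from gene starts. They were chosen on the measured peak positions of the control library. Control peaks more than 2.5 kb from every annotated protein-coding start site were kept, those separated by gaps of at most 12500 bp were joined, and joined groups of 3 or more peaks were called clusters. This gave 365 clusters with 1212 member peaks, out of 23413 peaks in the control list and 12479 distal ones. Members were 5.18% of all control peaks and 9.71% of the distal ones, and they covered 2.87 Mb. The other 11267 distal peaks stood alone (8709) or in pairs (2558), and 10933 peaks lay near a start site. One control peak on the mitochondrial chromosome was left out.

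The mark was profiled by ChIP-seq. K562 is an erythroleukaemia line of human origin that carries the BCR-ABL1 fusion and retains features of red cell precursors. The 3 groups were K562 cells transduced with a non-targeting control shRNA (shNT), with a first shRNA against TFAM (TFAM-sh1, hairpin 1) or with a second one (TFAM-sh2, hairpin 2), and the study asked how histone hyperacetylation in TFAM-deficient erythroid cells shows across the genome. TFAM packages mitochondrial DNA and starts its transcription. Each group was 1 library with 1 peak list from 1 cell line, and the peak lists do not measure the knockdown itself. There is therefore no replicate check and no p-value. Ranges in brackets after a share are exact 95% Clopper-Pearson limits and reflect counting error alone. Whether fewer cells carried the mark at a place or each cell carried less of it cannot be told apart.

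Enhancers are stretches of DNA, often far from the gene they act on, where transcription factors bind and recruit acetyltransferases that add acetyl groups to lysine 27 of histone H3. Neighbouring enhancers are often stitched together by distance, since genes that set a cell's identity tend to lie near dense groups of them. In red cell precursors such groups are bound by GATA1, by TAL1 with its partners, and by NF-E2.

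The lists matched part of the labelled lineage. Of 7 erythroid markers, 5 had a promoter peak in the control list (among them TAL1, HBZ, LMO2 and TFRC), and 5 and 4 had one in hairpin 1 and hairpin 2. GATA1 and HBG1 had no promoter peak in any list. The megakaryocyte markers ITGA2B and GP1BB were marked in the control and PF4 was not; of the myeloid markers SPI1 was marked and MPO and CEBPA were not; none of 3 lymphoid markers was marked in the control. Between lists, GP1BB and TAL1 lacked a promoter peak in hairpin 2, and CD3D, a T-cell gene, had one in hairpin 1 alone. These are promoter peaks, and none of the markers of any lineage had a cluster assigned to it. No peak was wider than 8704 bp (control), 8781 bp (hairpin 1) or 8841 bp (hairpin 2). The absence of GATA1 and HBG1 from the lists was not explored further. The whole lists covered 52.1, 54.4 and 61.9 Mb.

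Stretches of 200 bases from 6 clusters show what these members look like as sequence. In each cluster the stretch with the most motif matches among its members is printed, so the printed match counts are the highest of the cluster and not typical of it. The clusters were chosen as the one with the most covered sequence (CDCP1), a large one with like coverage in all lists (JARID2), one near a cytokine-response kinase (PIM1), one with more covered sequence in both TFAM lists (ATP2B4), one with no peak in either TFAM list (ROBO2) and the one with the most members (PLS3). Bases are from the GRCh37 primary assembly, plus strand, 5′ to 3′. Capitals mark matches, on either strand, to 10 motifs. They are the GATA factor motif AGATAA with its variant form TGATAA, the E-box CAGATG bound by TAL1 and its partners, the related E-box CAGCTG, the shared AP-1 and NF-E2 core TGACTCA, and the longer NF-E2 form GCTGAGTCA, which contains the reverse complement of that core. The others are the KLF motif CCACACCC, the RUNX motif TGTGGTT, the STAT motif TTCNNNGAA and the ETS motif CCGGAAG.
CDCP1, chr3:45145942-45146141: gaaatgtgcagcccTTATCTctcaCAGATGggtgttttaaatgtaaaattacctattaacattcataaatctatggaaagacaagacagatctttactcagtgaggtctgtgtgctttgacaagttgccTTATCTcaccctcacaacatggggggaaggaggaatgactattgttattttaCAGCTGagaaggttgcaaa
JARID2, chr6:15081807-15082006: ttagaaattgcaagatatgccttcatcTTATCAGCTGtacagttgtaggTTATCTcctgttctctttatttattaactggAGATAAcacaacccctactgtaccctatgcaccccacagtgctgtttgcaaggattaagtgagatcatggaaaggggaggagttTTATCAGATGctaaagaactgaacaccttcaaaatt
PIM1, chr6:37077730-37077929: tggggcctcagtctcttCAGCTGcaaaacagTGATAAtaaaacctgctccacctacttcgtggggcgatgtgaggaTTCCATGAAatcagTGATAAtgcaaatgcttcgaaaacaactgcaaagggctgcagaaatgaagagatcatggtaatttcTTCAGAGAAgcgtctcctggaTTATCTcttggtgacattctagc
ATP2B4, chr1:203643347-203643546: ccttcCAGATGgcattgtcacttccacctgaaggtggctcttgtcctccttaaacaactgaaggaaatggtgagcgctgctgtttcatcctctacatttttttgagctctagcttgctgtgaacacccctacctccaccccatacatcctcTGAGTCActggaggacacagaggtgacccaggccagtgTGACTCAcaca
ROBO2, chr3:77238512-77238711: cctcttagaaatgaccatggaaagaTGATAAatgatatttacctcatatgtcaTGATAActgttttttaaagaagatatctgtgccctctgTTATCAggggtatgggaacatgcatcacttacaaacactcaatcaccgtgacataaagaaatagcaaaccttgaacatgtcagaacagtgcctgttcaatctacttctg
PLS3, chrX:114960326-114960525: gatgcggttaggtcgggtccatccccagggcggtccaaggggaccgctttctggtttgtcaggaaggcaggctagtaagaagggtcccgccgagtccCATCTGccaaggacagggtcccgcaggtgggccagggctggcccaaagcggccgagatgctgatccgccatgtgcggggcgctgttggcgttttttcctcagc
The ATP2B4 stretch holds the AP-1 core on both strands, the ROBO2 stretch holds matches to TGATAA alone, and the PLS3 stretch is rich in G+C (64.5%) and holds a single E-box. A match is a run of letters and does not show that a factor was bound.

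The motif content of the members was close to that of other distal peaks, and both differed from peaks near start sites. In the central 300 bp, AGATAA was found in 21.7% (19.4 to 24.1) of members, 23.1% (22.3 to 23.8) of other distal peaks and 7.38% (6.90 to 7.89) of peaks near a start site. TGATAA was found in 14.4%, 16.6% and 5.17%, and TGACTCA in 11.8%, 13.0% and 3.70%, in the same order. The E-box CAGATG was found in 18.9% of members and 18.9% of other distal peaks against 10.5% near start sites, while CAGCTG was at 15.8%, 15.6% and 15.3%. In this central window the GATA, AP-1 and CAGATG letters were thus more frequent in distal peaks of either kind than near start sites, and CAGCTG was not. Over whole peaks, which differ in width, CAGATG was found in 70.1%, 63.5% and 67.6%. One motif separated members from other distal peaks beyond the counting intervals: GCTGAGTCA was found in 1.16% (0.633 to 1.93) of members and in 2.89% (2.59 to 3.22) of other distal peaks. Over whole peaks, which are wider in members, it was found in 7.18% and 8.37%, or 0.0310 and 0.0512 times per kb. The KLF motif CCACACCC was found in 3.22%, 3.04% and 3.07%, RUNX TGTGGTT in 6.68%, 6.10% and 2.81%, and STAT TTCNNNGAA in 13.5%, 12% and 5.54%. The ETS motif CCGGAAG, a typical promoter element, ran the other way, at 2.31%, 2.87% and 10.3%.

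Most clusters were small. Of the 365, 292 had 3 members, 50 had 4, 14 had 5 and 6 had 6, and the remaining clusters had 7, 10 and 13. A cluster covered 1934 to 29647 bp of peak sequence (median 7235) within a span of 7287 to 65105 bp (median 21813), so that members filled a median of 32.7% of the span. The distances at the edges of the rule left no tie: the longest gap inside a cluster was 12489 bp and the shortest one outside was 12543 bp, and the member nearest to a coding start lay 2546 bp away while the farthest peak left out as near a start lay 2499 bp away. Members were wider than other distal peaks, with a median of 2023 against 1500 bp, but did not score higher. Their median score percentile within the control list was 31.5, against 32.9 for other distal peaks and 72.4 for peaks near a start site. Median G+C was 44.8%, 44.5% and 54.6%, in the same order.

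By annotation, members lay outside genes more often than other distal peaks. Intergenic members were 58.7% (55.8 to 61.5) against 49.9% (49.0 to 50.9), intronic ones 32.1% against 37.4%, and those touching an exon 9.24% against 12.6%. At the level of clusters, 176 (48.2%) overlapped a protein-coding gene, 124 (34.0%) lay wholly inside 1 gene body, and 71 (19.5%) were more than 100 kb from any coding start. A long noncoding RNA started inside 110 clusters and a microRNA inside 13. The density was uneven: chromosome 17 held 28.3 clusters per 100 Mb, chromosome 6 held 24 and chromosome 1 held 20.5, against 3.22 on chromosome X and 3.47 on chromosome 13. Distal peaks were uneven as well, and as a share of them members differed less. That share was 13.6%, 15.4% and 12.2% on chromosomes 17, 6 and 1, against 7.34% on X and 4.90% on 13. The promoter of the nearest coding gene (1 kb on each side of the start) carried a peak in the control for 259 clusters (71.0%), in all 3 lists for 243 (66.6%) and in none for 81 (22.2%). Over all coding genes, 56.4% had a promoter peak in the control and 52.8% in all 3 lists. Clusters are named below by the gene they overlap or otherwise by the nearest coding start, which gives a place and not a target.

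The clusters held less covered sequence in both TFAM lists than in the control list that chose them. Inside the spans, the control list covered 2.89 Mb, hairpin 1 covered 2.16 Mb (74.6% of control) and hairpin 2 covered 2.39 Mb (82.7%), although the whole hairpin lists covered 104.3% and 118.7% of the control. Per cluster, the median was 73.3% of control in hairpin 1 (quartiles 42.9 and 104.9) and 83.6% in hairpin 2 (quartiles 60.6 and 105.9). Hairpin 1 was below the control in 258 clusters (70.7%) and hairpin 2 in 252 (69.0%). Of all clusters, 196 were below in both, 51 above in both and 118 went in opposite directions. Fewer clusters than distal groups in general lost most of their coverage: 109 clusters (29.9%) were under 50% of control in hairpin 1, where 39.1% of all joined distal groups of 1 or more peaks were, and 63 (17.3%) in hairpin 2, where 28.9% were. Groups of a single peak have only 1 peak to lose, so these shares are not on an equal footing. Above 200% of control were 2 clusters in hairpin 1 (0.548%) and 1 in hairpin 2 (0.274%). Of all such groups, 0.106% and 0.106% were. A group of 1 peak fills its whole span in the control, so its coverage cannot rise above the control value. Of the 10353 groups, 8709 were of this kind. The shares above 200% therefore cannot be compared between clusters and all groups.

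**Figure D1:**
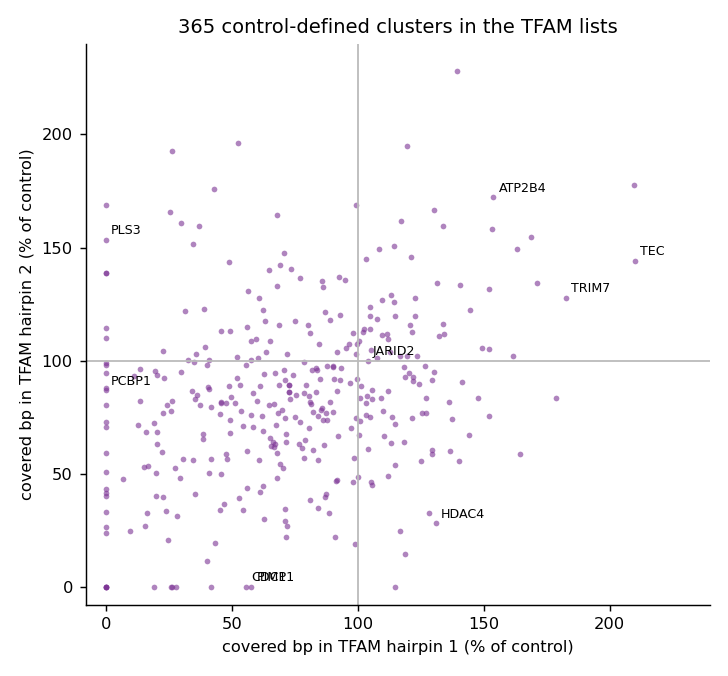
Each point is 1 of the 365 clusters, placed by its covered base pairs in hairpin 1 (x axis) and hairpin 2 (y axis) as a percentage of its control value, with lines at 100%. More points lie in the lower left (196 clusters below control in both lists) than in the upper right (51 above in both), and the points on the left edge have no hairpin 1 peak.

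Which list defines the clusters set the direction of that total. The same rule gave 431 clusters (1465 members) in the hairpin 1 list, which covered 3.6 Mb there and 2.42 Mb, or 67.2%, in the control. It gave 535 clusters (1819 members) in the hairpin 2 list, which covered 4.34 Mb there and 2.77 Mb, or 63.9%, in the control. Hairpin 1 clusters kept 72.7% of their coverage in hairpin 2, and hairpin 2 clusters kept 62.0% in hairpin 1. Each list thus covered most in the clusters it had itself chosen. When overlapping peaks of the 3 lists were merged first, so that no list chose alone, 1091 clusters of 3953 regions resulted. They held 5.70 Mb of control peaks, 6.04 Mb of hairpin 1 peaks (106.0% of control) and 6.82 Mb of hairpin 2 peaks (119.8%). Those ratios lie close to the 104.3% and 118.7% of the whole lists. Of the 365 control clusters, 173 (47.4%; 42.2 to 52.7) met a cluster of the same rule in hairpin 1 and 192 (52.6%; 47.3 to 57.8) did so in hairpin 2.

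**Figure D2:**
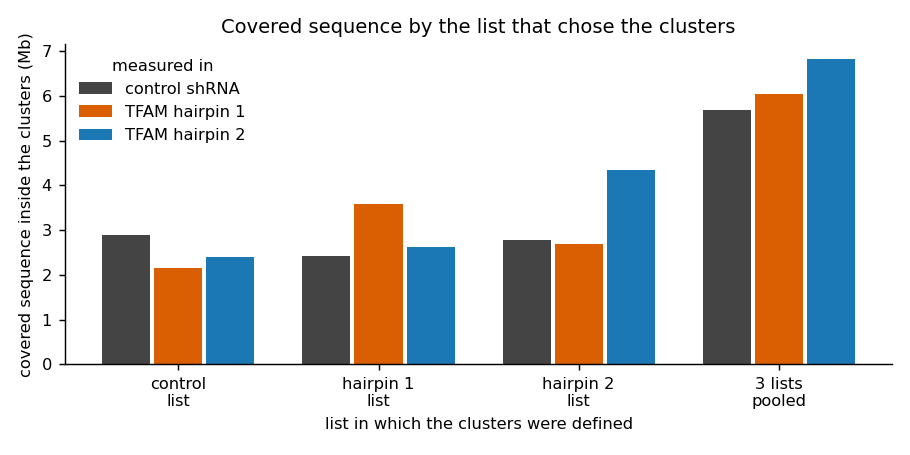
Bars give the megabases covered by peaks of each list (colours) inside clusters defined in the control list, in hairpin 1, in hairpin 2 and in the 3 lists pooled. In each of the first 3 sets the defining list has the tallest bar, and in the pooled set the bars stand at 5.70, 6.04 and 6.82 Mb.

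Peak by peak, members as a whole were found again slightly more often than other distal peaks, though not at like width (values by width follow), and far less often than peaks near start sites. A member was overlapped by 1 bp or more in hairpin 1 for 69.4% (66.7 to 72.0) and in hairpin 2 for 76.6% (74.1 to 78.9). Other distal peaks were overlapped for 66.0% (65.1 to 66.9) and 73.9% (73.1 to 74.7), and peaks near a start site for 93.5% and 93.9%. Over all control peaks, 21% had no hairpin 1 peak, 16.6% no hairpin 2 peak and 10.2% neither. Among members, 712 (58.7%) were found in both lists, 129 only in hairpin 1, 216 only in hairpin 2 and 155 (12.8%; 11 to 14.8) in neither. The share in neither list was 17.0% (16.4 to 17.8) for other distal peaks and 2.83% for peaks near a start site. Members found in both lists had a median width of 2328.5 bp, a median score percentile of 41.1 and a median G+C of 45.9%. Members found in neither had 1284 bp, 11.9 and 41.1%. The medians of the 155 thus lay lower in width, score and G+C, but wide peaks were among them: from the narrowest to the widest of 5 near-equal width groups of distal peaks they numbered 36, 39, 26, 29 and 25. In the hairpin lists 22 (hairpin 1) and 30 (hairpin 2) peaks inside the spans overlapped no control peak, and 15 and 25 hairpin peaks ran across 2 or more members.

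Score and members' recovery moved together. Distal peaks were split by control score into 5 near-equal groups. In the lowest group members were overlapped for 42.3% in hairpin 1 and 52.3% in hairpin 2, and in the highest for 92.8% and 93.7%. The margin over other distal peaks was widest in the second-lowest group, where 59.6% (53.5 to 65.4) of members and 49.5% (47.4 to 51.6) of other distal peaks were found in hairpin 1, and 67.9% (62.0 to 73.3) against 58.6% (56.5 to 60.7) in hairpin 2. In that group 15.2% (11.2 to 19.9) of members and 28.1% (26.2 to 29.98) of the others were in neither list. In the top group members were not above the others, at 93.7% (89.6 to 96.5) against 97.1% (96.3 to 97.7) in hairpin 2. Recovery also differed with base composition: from the lowest to the highest of 5 G+C groups, it went from 55.0% to 78.9% of members in hairpin 1 and from 63.2% to 85.1% in hairpin 2.

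**Figure D3:**
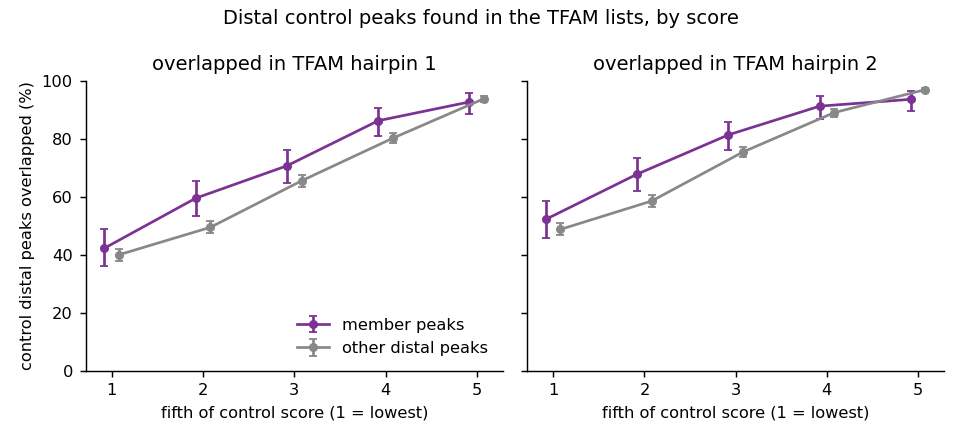
Points give the percentage of distal control peaks overlapped in hairpin 1 (left) and hairpin 2 (right), by group of control score from lowest to highest, for members and other distal peaks, with 95% Clopper-Pearson bars for counting error. Members lie above the others in the 4 lower groups and not in the highest, where they reach 92.8% and 93.7%.

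At like width, members were mostly found less often than other distal peaks. Among peaks of 1 to 2 kb, 62.8% of members and 67.2% of the others were overlapped in hairpin 1, and 73.4% and 76.2% in hairpin 2. From 2 to 3 kb the shares were 80.7% and 83.5% in hairpin 1 and 84.6% and 90.1% in hairpin 2, and from 3 to 4 kb they were 82.4% and 87.7%, and 88.9% and 91.3%. Only below 1 kb were members ahead in both lists, at 51.2% (44.3 to 58.0) against 43.3% (41.6 to 45.0) in hairpin 1 and 60.9% (54.1 to 67.5) against 53.8% (52.1 to 55.5) in hairpin 2. In the group of second-highest width (1836 to 2689 bp), 10.4% (7.10 to 14.6) of members and 6.4% (5.42 to 7.50) of the others were in neither list, and in the widest group 6.39% (4.18 to 9.29) and 4.65% (3.79 to 5.64) were. The higher recovery of members as a whole therefore does not hold at like width. Members scored lower than other distal peaks at some widths, with medians at percentile 24.1 against 33.9 from 1 to 2 kb and 41.0 against 53.5 from 2 to 3 kb. The medians were alike below 1 kb (12.8 and 12.8) and from 4 to 5 kb (56.3 and 56.8). Members of 4 to 5 kb were overlapped for 88.1% (79.2 to 94.1) in hairpin 1 and 83.3% (73.6 to 90.6) in hairpin 2. The 41 members wider than 6 kb were overlapped for only 58.5% (42.1 to 73.7) and 70.7% (54.5 to 83.9), with a median score percentile of 32.3. Other distal peaks of that width were overlapped for 79.9% (72.8 to 85.8) and 76.7% (69.4 to 83.1), with a median score percentile of 30.2, which was not above that of the members. By cluster rank, coverage in hairpin 1 was 62.8% of control at ranks 1 to 50, 79.3% at 51 to 100, 81.9% at 101 to 200 and 74.8% at 201 to 365. In hairpin 2 it was 77.5%, 77.6%, 84.4% and 89.3%. The rank was set by the same control coverage that is the denominator here, so low values at the top are part of the choice. Of the 50 clusters with the most control coverage, 20 stayed among the first 50 of the 365 in hairpin 1 and 28 in hairpin 2.

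Neighbouring members tended to be kept or missing together. Of 847 pairs of adjacent members, hairpin 1 overlapped both in 445 (52.5%), 1 in 279 (32.9%) and none in 123 (14.5%). A member whose neighbour was overlapped in hairpin 1 was itself overlapped in 76.1% of cases, and one whose neighbour was missing in 53.1%. In hairpin 2 both were overlapped in 516 pairs (60.9%) and none in 66 (7.79%), and the shares were 79.6% and 66.8%. Adjacent members share their place in the genome, so these are descriptions. All members were overlapped in 150 clusters in hairpin 1, 164 in hairpin 2 and 86 (23.6%) in both. No base was covered in 26 clusters in hairpin 1, in 12 in hairpin 2 and in 4 in both.

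The largest cluster lay over the body and flank of CDCP1, which encodes a transmembrane glycoprotein phosphorylated by Src kinases (chromosome 3, 45116948 to 45182052 in hg19). It held 6 members and 29647 bp of control coverage, beside 16508 bp with hairpin 1 and 0 bp with hairpin 2. Hairpin 1 overlapped 3 adjacent members, among them the peak of 6885 bp from which the stretch above was taken, and hairpin 2 overlapped none. No member ranked above score percentile 45.5, so the cluster was long without being strong. A second cluster nearby, closest to CLEC3B, covered 7966, 3335 and 0 bp in control, hairpin 1 and hairpin 2. Neither stretch therefore had a hairpin 2 peak.

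The BBS12 cluster on chromosome 4, near a gene for a chaperonin-like protein of the primary cilium, had 23327 bp of control coverage, beside 10913 bp with hairpin 1 and 8500 bp with hairpin 2. By contrast, the JARID2 cluster was alike in all lists, with 21467, 22309 and 21434 bp, and all 5 members were overlapped in both hairpins. It lies on chromosome 6 (15065342 to 15108747), 137553 bp from the start of JARID2, a cofactor of the Polycomb complex that methylates histone H3 lysine 27. Its strongest member, at score percentile 67.3, had all its 7033 bp covered in both TFAM lists. The H4C8 cluster, beside the histone genes of chromosome 6, had 20159, 12220 and 20401 bp.

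Among the next in rank, hairpin 1 and hairpin 2 often parted. The PCBP1 cluster on chromosome 2, near the gene of an RNA-binding protein that also acts as an iron chaperone, had 18382 bp of control coverage, beside 0 bp with hairpin 1 and 15990 bp with hairpin 2. One of its 3 members ranked at score percentile 89.4, so a strong control peak had no counterpart in hairpin 1. The MTSS1 cluster had 17225, 6191 and 17762 bp, and the SMAD6 cluster, near an inhibitor of BMP signalling, had 17205, 16862 and 7999 bp. The low value was that of hairpin 1 at the first and of hairpin 2 at the second. The STEAP1B cluster, whose nearest start is that of the cytokine gene IL6, had 16908, 8072 and 13762 bp. CABCOCO1 had 18876, 11580 and 7869 bp, and ANKRD33B had 16333, 11633 and 12165 bp. Coverage at ZNRF1 (16017, 14069 and 15612 bp) and AHDC1 (15564, 14455 and 14253 bp) was 87.8% or more of the control in both lists. These totals hide missing members. The highest-scoring AHDC1 member (5161 bp, percentile 64.0) had 0 bp in both TFAM lists, and that of ZNRF1 (4763 bp, percentile 64.4) had 0 bp in hairpin 1. PLGLB2 (16216, 3284 and 11093 bp) and a first BCL2L11 cluster (15918, 3651 and 12199 bp) were lowest in hairpin 1, and CWH43 (17549, 12133 and 24938 bp) was lowest in hairpin 1 and highest in hairpin 2.

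**Figure D4:**
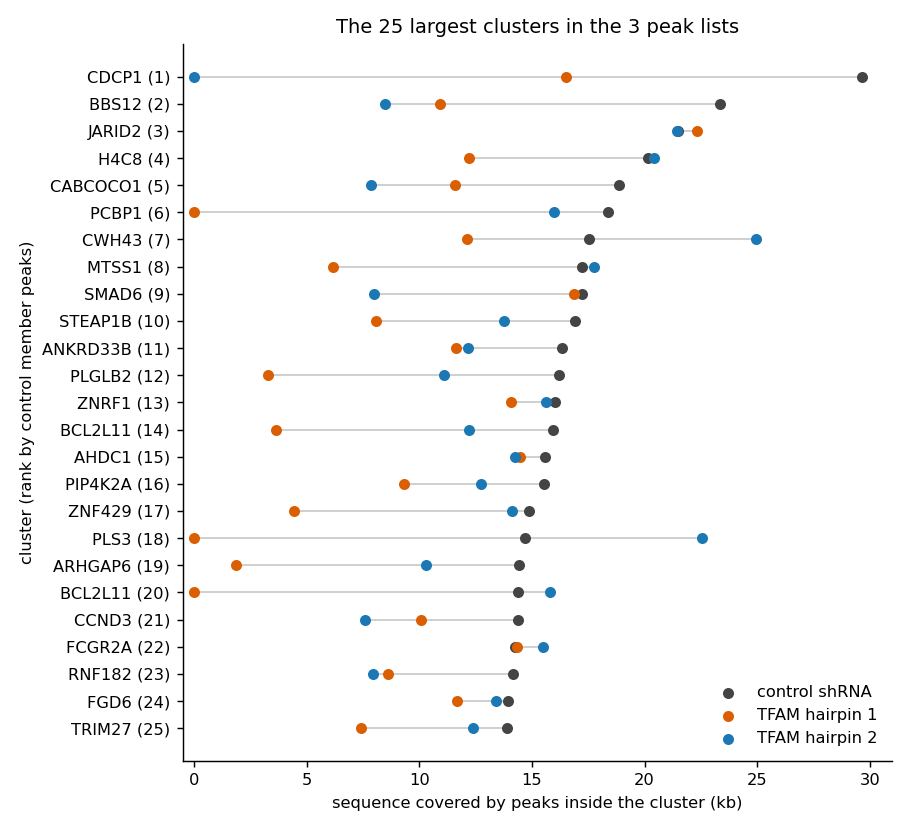
Dots give the kilobases covered by peaks of each list inside the 25 clusters with the most control coverage, 1 line per cluster, in order of control rank (a dot drawn later can hide one at the same value). CDCP1 is at 0 in hairpin 2, PCBP1, PLS3 and the second BCL2L11 cluster are at 0 in hairpin 1, and JARID2 lies between 21.4 and 22.3 kb in all 3 lists.

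Clusters at the listed genes of red cell biology had less coverage in both TFAM lists than in the control. The 3 red cell lists (erythroid transcription factors, globin, heme and iron, and red cell membrane) hold 74 genes, of which 4 (5.41%) had a cluster over or nearest to them, beside 385 (1.91%) of all coding genes. Their 5 clusters were all below the control in both hairpins, as were 196 of all 365. The other 6 lists hold 91 genes, of which 6 (6.59%) had a cluster, so the share in the red cell lists was not the higher one. Of the 6 clusters at those genes, 4 were below in both. The lists were chosen with earlier results known, and no test sets these 11 clusters apart from the rest. Genes with red cell roles outside the lists went both ways. SOX6 was below the control in both hairpins, and ATP2B4 and DYRK3 were above it in both (values below).

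The NPRL3 cluster lies on chromosome 16 inside NPRL3, a neighbour of the alpha-globin genes. It had 12360 bp of control coverage, beside 10783 bp with hairpin 1 and 5086 bp with hairpin 2. Hairpin 1 overlapped all 3 members and hairpin 2 overlapped 1, so coverage was lower mainly in hairpin 2. SLC25A37, which imports iron into mitochondria for heme synthesis, had a cluster of 11977, 6265 and 11044 bp. ANK1, the ankyrin that ties the red cell membrane to its skeleton, had 10793, 9835 and 2368 bp.

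Of the listed erythroid transcription factors, NFIA, which takes part in the choice of the erythroid fate, was the single gene with clusters. One NFIA cluster had 6971, 4381 and 2080 bp and the other 5497, 3575 and 3613 bp. Both lie inside the gene and both were lower in the TFAM lists. The list of erythroid factors is not complete: SOX6, a factor of late red cell development that is not on it, had a cluster of 6178, 2509 and 5452 bp. From the megakaryocyte list, ITGB3, the beta chain of the platelet fibrinogen receptor, had 11502, 11492 and 12357 bp, and the homeobox gene MEIS1 had 7765, 1489 and 5630 bp. The ITGB3 total was thus near its control value in both hairpins, although its first member (4150 bp) had 0 bp in hairpin 2. MEIS1 was low in hairpin 1.

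Of the genes downstream of cytokine receptors and BCR-ABL1, the cell cycle gene CCND3 had 14379, 10092 and 7571 bp, and the ERK phosphatase gene DUSP6 had 6157, 3456 and 2675 bp. PIM1, a survival kinase induced by STAT5, had a cluster of 13069, 7534 and 0 bp. Its middle member, the source of the sequence above, was absent from both TFAM lists (4590, 0 and 0 bp). The neighbouring FGD2 cluster had 3564, 688 and 0 bp, a second place where adjoining clusters both lacked a hairpin 2 peak. HDAC4, a histone deacetylase, went in opposite directions, with 7883 bp of control coverage, beside 10324 bp with hairpin 1 and 2204 bp with hairpin 2. No cluster was over or nearest to a gene of the myeloid list, the lymphoid list or the list of mitochondrial genes linked to TFAM. These lists hold only 13, 13 and 11 genes, and 1.91% of all coding genes had a cluster. Absence from so few genes does not show that loci of these kinds lack clusters.

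**Figure D5:**
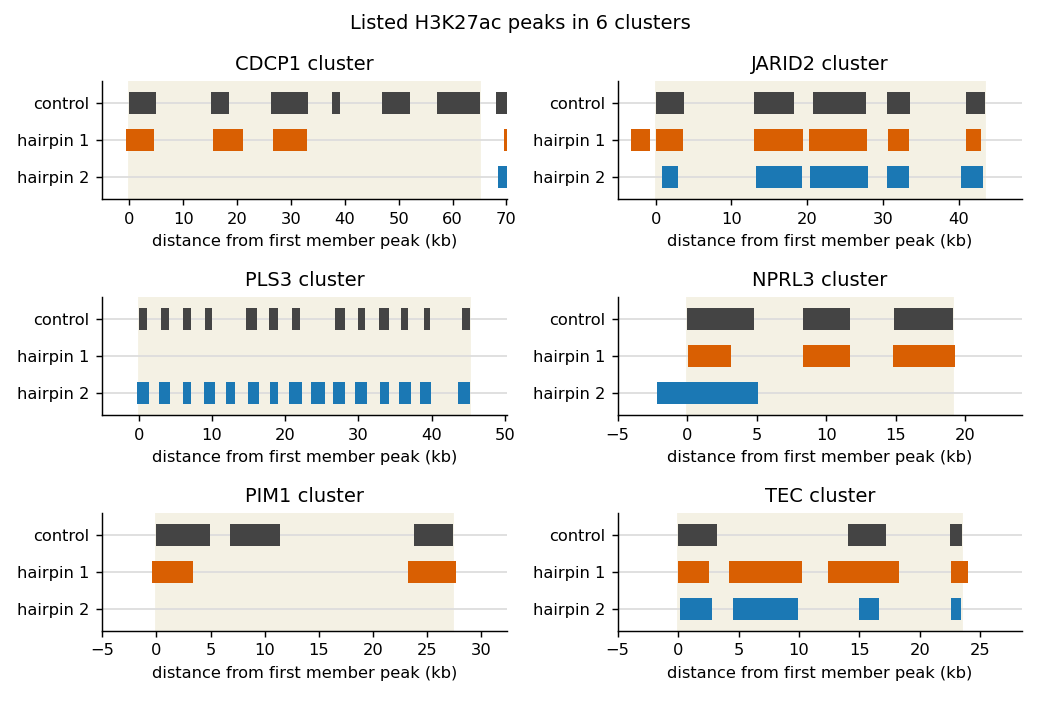
Boxes are listed peaks of the control, hairpin 1 and hairpin 2 in 6 clusters, with distance from the first member in kb and the cluster span shaded. JARID2 shows 5 members in every list, CDCP1 and PIM1 show no hairpin 2 peak within the span, PLS3 shows no hairpin 1 peak, NPRL3 shows 1 hairpin 2 peak and TEC shows 4 peaks in each TFAM list.

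The clusters with the largest drop shared by both hairpins included CDCP1, BBS12 and CABCOCO1, given above. The KCNT2 cluster, inside a potassium channel gene, had 12309 bp of control coverage, beside 2955 bp with hairpin 1 and 4104 bp with hairpin 2. CDH6 had 11855, 826 and 5621 bp, at a place 1196949 bp from that cadherin gene's start. UQCRFS1, which encodes the Rieske protein of respiratory complex III, is the nearest gene, at 651317 bp, to a cluster of 9397, 2472 and 0 bp. The ROBO2 cluster, in the gene of an axon guidance receptor, had 6687, 0 and 0 bp, and the nearest TFAM peaks were 137645 and 138332 bp away. CDH18 (3223 bp), OPA1 (2703 bp) and PCDH10 (2420 bp) were the other clusters with no peak in either TFAM list. These 4 had control members of low rank, with medians at score percentiles 13.0, 22.6, 8.27 and 10.6 and G+C of 34.7%, 35.6%, 46.5% and 36.0%, in the order ROBO2, CDH18, OPA1 and PCDH10. The OPA1 cluster with no TFAM peak lies 120841 bp from that gene's start. A larger cluster nearest to OPA1 had 9838, 8301 and 5521 bp.

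The 8 clusters with the largest increase shared by both hairpins mostly kept their members, with longer or additional peaks. The TEC cluster, in the gene of a kinase of B-cell and myeloid signalling, had 7328 bp of control coverage, beside 15386 bp with hairpin 1 and 10559 bp with hairpin 2. A peak between its first and second members was listed in both hairpins and not in the control. TRIM7 had 8933, 16309 and 11413 bp. NUDT3 had 7940, 12182 and 12562 bp, and FAM53B had 5748, 9704 and 8878 bp. ATP2B4, the plasma membrane calcium pump found in red cells, had 6009, 9246 and 10351 bp, with all 3 control members covered from end to end in both TFAM lists. ZFYVE28 had 8283, 11088 and 13207 bp, and DYRK3, a kinase known from erythroid progenitors, had 7789, 10239 and 10456 bp. CXXC5, a zinc-finger gene, had 10909, 13400 and 13919 bp and held the strongest median of this set, at score percentile 69.4. These clusters were selected on the values given, so the direction is a description.

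Some clusters lie in repeated sequence, where reads with more than 1 place were not kept. The PLS3 cluster (chromosome X, 114960203 to 115005507) had 13 members, the most of any, and covered 14686 bp of control coverage, beside 0 bp with hairpin 1 and 22526 bp with hairpin 2. Hairpin 2 overlapped all 13, and the nearest hairpin 1 peak was 1656440 bp away. In its span 99.3% of 20-base words recurred, most often at a distance of 2983 bp, and G+C was 62.2%. The place and unit length are those of the DXZ4 macrosatellite, a tandem array known for its part in the folding of the inactive X chromosome. The FCGR2A cluster, with 68.2% recurring words at 7380 bp, had 14253, 14315 and 15469 bp and all 6 members in every list. The CWH43 cluster had 70.8% recurring words.

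Over the 10 clusters in which at least 20% of words recurred (53 members), hairpin 1 overlapped 52.8% of members and hairpin 2 overlapped 94.3%, with 59.9% and 117.5% of control coverage. Without the PLS3 cluster, the remaining 9 (40 members) gave 70.0% and 92.5% of members and 73.4% and 109.4% of coverage, so the low hairpin 1 values rested on PLS3. Over the 32 clusters within 3 Mb of an assembly gap of 1 Mb or more (111 members), the shares of members were 63.1% and 82.9%. Over the 328 clusters with neither property, 70.4% and 75.4% of members were overlapped, with 75.7% and 81.3% of control coverage. The difference between hairpins was thus widest in repeated sequence, with or without PLS3, and its cause was not tested. On chromosome X, whose 26 members include the 13 of the PLS3 cluster, 26.9% were overlapped in hairpin 1 and 84.6% in hairpin 2.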

How the data were processed

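H3K27ac peak lists of 3 K562 libraries were used, 1 each for shNT, TFAM-sh1 and TFAM-sh2, grouped by sample title. The input library was not analysed here. Per the labels' protocols, reads with exactly 1 place in hg19 were retained. The submitters' processing notes list Bowtie 0.12.7 and Picard without saying what each did, and hg19 as the build. The peak names carry a MACS prefix; the caller's version, threshold, use of input and read depth are not given in the sources used here. For each peak the deposited score is the authors' own value, from 50 to 3100 in the control; ranks of it were taken inside 1 list at a time. Peaks were called per library, as each sample has its own deposited list.

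Start sites of all protein-coding transcripts (79045 sites) came from GENCODE release 44 mapped to GRCh37, and sequence from GRCh37. Overlap was at least 1 bp; covered bp were summed from the first to the last member base; positions are 1-based. G+C was not computed for 4 members in sequence masked on chromosome Y. The 15 clusters with the most control bp were named by rule. So were the 8 with the largest drop and the 8 with the largest increase in both TFAM lists (by the smaller difference). Clusters at genes of the lists (up to 4 per list) and clusters with no peak in either TFAM list were also named by rule. PLS3, FCGR2A, CLEC3B, FGD2, SOX6, the second BCL2L11 cluster and the larger OPA1 cluster were chosen after their values were seen. A few of the items so named are left out of the text. The members and lists were chosen with earlier results of these data known. On simulated data of 400 peak groups, every cluster and kept peak was recovered in 40 of 40 simulations. Alternatives changed the gap, the distance to starts, the start sites, the score threshold, list length, overlap, merging, chromosomes and the defining list. Python 3.11.15, numpy 2.4.6, SciPy 1.17.1 and matplotlib 3.10.9 were used.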

Additional observations from a re-analysis of the deposited data

Results flagged for a closer look

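In 7 clusters 1 TFAM list had no covered base while the other lay above the control, so the hairpins moved in opposite directions. With 1 library each, the difference was not tested. In 6 of them hairpin 1 was at 0 bp and hairpin 2 above the control: PLS3 (22526 bp in hairpin 2, 14686 in the control), the second BCL2L11 cluster (15814 and 14382), SSTR4 (6469 and 5665), MTRNR2L1 (6355 and 3765), ADCYAP1 (5031 and 3632) and KLHL42 (3172 and 2287). In the PNRC1 cluster hairpin 2 was at 0 bp, and hairpin 1 had 2316 bp against 2015 in the control. Among all clusters, 22 were at 0 bp in hairpin 1 alone and 8 in hairpin 2 alone.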

How the results depend on the processing

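Of 94 recomputed values, 68 kept their side and size (within 5 percentage points, the counting interval, or 1.5 times for counts), 22 moved and 4 reversed. The number of clusters (members) was 38 (130) with gaps of 5 kb, 818 (3049) with 25 kb and 9 (30) in the higher-scoring 50% of each list. With gaps of 5 kb, members overlapped were 66.2% in hairpin 1, 81.5% in hairpin 2 and 7.69% in neither, and hairpin 1 coverage was 65.6% of control. With 25 kb, coverage was 81.9% and 88.8% in hairpin 1 and hairpin 2. In the higher-scoring 50%, 76.7% of members were overlapped in hairpin 1, coverage was 81.1% and 77.6%, and 19.5% of other distal peaks were in neither list. With equal list lengths, 69.8% of members were overlapped in hairpin 2, 17.2% of members and 20.6% of other distal peaks were in neither list, and hairpin 2 coverage was 76.8%. An overlap of 50% of the shorter peak put 17.8% of other distal peaks in neither list. Followed from hairpin 2 clusters, 64.8% of members were overlapped in the control. Coverage over control reversed, to 148.7% and 156.5%, in clusters defined in each TFAM list, and to 106.0% and 119.8% in pooled clusters; these settings, and those leaving out repeated or gap-near clusters or clusters with peaks of 5 kb or wider, which kept the values, were chosen after seeing the data. The cause of these changes was not tested, except that the defining list differs by construction. Members stayed below other distal peaks in the share found in neither list in 11 of 11 planned settings; none of these compares peaks of like width, where the order turns in the wider peaks (6.39% against 4.65% in the widest group). No paired analysis was possible because each group is 1 library, and for the same reason no replicate could be left out. Read depth is unknown, so a missing peak cannot be told apart from one below the caller's threshold. No listed peak exceeded 8841 bp, and whether wider peaks were left out of the lists was not tested. A value of 0 bp therefore means that no peak was listed, and not a measured loss of the mark.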
